A study of Mus musculus with 8 samples.

Results

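The mesothelial genes of gonadal fat described here are Msln, Upk3b, Upk1b, Wt1, Lrrn4, Gpm6a and Bnc1, the 7 rows of a table of 24821 genes whose identifiers map to these symbols in GENCODE M21. They were listed by name as genes known from mesothelial cells. The study sequenced RNA of epididymal white adipose tissue, the fat pad beside the male gonad, in 4 Ccdc92 knockout (KO) and 4 wild type (WT) libraries. The KO animals were males lacking Ccdc92, and the WT animals were their littermates of the same age, all on a C57BL/6 background. Both genotypes had been on a high-fat diet for 14 weeks, in which fat supplied 60% of the calories and protein and carbohydrate 20% each. The labels give neither the age in weeks nor the part of Ccdc92 that was removed, nor whether each library came from 1 animal, and the p-values therefore cover the spread among these libraries alone, which may be technical. Reads assigned to genes came to 23681088 to 33817478 in KO libraries and 27760429 to 29887921 in WT libraries. Values are normalized counts, read counts divided by 1 scaling factor per library. The targeted gene, Ccdc92, was at 4.9 to 9.7 in KO libraries and 54.1 to 105.8 in WT libraries, lower in every library labelled KO.

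Mesothelium is the thin sheet of flat epithelial cells that lines the peritoneal cavity and covers the organs and the visceral fat in it, gonadal fat included. Subcutaneous fat has no such cover. The cells secrete a lubricating fluid, and mesothelin on their surface is known as a binding partner of the mucin MUC16 in human cells. In bulk tissue a gene that few cells make follows both the number of those cells and the RNA in each, and fewer cells and less RNA per cell cannot be told apart.

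All 7 genes were detected in all 8 libraries, with 41 to 5065 reads per gene and library. The lowest of these, 41 reads of Bnc1 in KO replicate 2, has a 95% exact Poisson interval of 29.4 to 55.6, which covers counting error only. The levels spread widely between libraries of one genotype, in nearly the same order for all 7 genes, with KO replicate 4 highest and KO replicate 2 lowest among KO libraries. Between genotypes the groups overlapped in every one of the 7 genes, and none of them passed the test. Among the markers of other cell types, 8 adipocyte genes summed to normalized counts of 938106.6 to 1214529.2 in KO libraries and 199702.4 to 417514.2 in WT libraries, while the 7 mesothelial genes summed to 2116.7 to 15176.4 in KO libraries and 1641.6 to 6978.4 in WT libraries. Of the further genes known from mesothelium, Calb2, which encodes calretinin, a marker of human mesothelial cells, was close to 0, at 0 to 1.1 in KO libraries and 0 to 21.5 in WT libraries.

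The genes lie on 6 chromosomes of GRCm38. Msln (ENSMUSG00000063011.7) is on chromosome 17 from 25748613 to 25754378, minus strand, and Upk3b (ENSMUSG00000042985.7) on chromosome 5 from 136038496 to 136046487, plus strand. Upk1b (ENSMUSG00000049436.5) is on chromosome 16 from 38773184 to 38800328, minus strand, and Gpm6a (ENSMUSG00000031517.8) on chromosome 8 from 54954843 to 55060871, plus strand. Bnc1 (ENSMUSG00000025105.9) is on chromosome 7 from 81966672 to 81992292, minus strand. Chromosome 2 holds both Wt1 (ENSMUSG00000016458.14, 105126529 to 105173616, plus strand) and Lrrn4 (ENSMUSG00000043110.2, 132868305 to 132880891, minus strand). The antisense gene Wt1os runs away from Wt1 on the opposite strand, with 18 bases between the annotated genes, so the annotated genes do not overlap. Bnc1 is overlapped on the other strand by the pseudogene 4833418N17Rik, listed at no more than 7.3 in KO libraries and 0 in WT libraries, and Gpm6a by 5 provisional genes on its own strand with no row in the table.

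Because the 7 genes followed one library profile, the DNA just before their starts is shown for the 4 of them that have an entry in the RefSeq promoter table of GRCm38.p6. Each window is the 250 bases that end just before an annotated start, written along the gene's strand. Gpm6a has a pair of starts, of which the upstream one is shown. That upstream window lies well before the span of Gpm6a given above. The Lrrn4 window ends inside the span of Lrrn4 given above, because its RefSeq start lies within that span. Capitals mark matches, on either strand, to 5 motifs, none of which overlap here. They are the letters TATAAA of the core promoter box of that name, GGGCGG of the box bound by Sp factors, GCGTGGG of the core bound by WT1 and EGR factors, GGAATG of the site bound by TEAD factors, and TGANTCA of the site bound by AP-1.
Upk3b, chr5:136038246-136038495, plus strand: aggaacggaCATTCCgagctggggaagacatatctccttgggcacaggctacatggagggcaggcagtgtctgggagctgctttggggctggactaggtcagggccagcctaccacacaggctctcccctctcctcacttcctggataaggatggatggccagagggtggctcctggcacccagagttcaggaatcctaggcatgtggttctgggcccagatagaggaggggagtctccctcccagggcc
Lrrn4, chr2:132880863-132881112, minus strand: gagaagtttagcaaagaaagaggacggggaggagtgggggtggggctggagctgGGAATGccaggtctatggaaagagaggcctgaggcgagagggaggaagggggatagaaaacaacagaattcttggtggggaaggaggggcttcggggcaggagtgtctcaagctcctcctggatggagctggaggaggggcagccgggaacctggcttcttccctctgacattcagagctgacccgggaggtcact
Gpm6a, chr8:54779184-54779433, plus strand: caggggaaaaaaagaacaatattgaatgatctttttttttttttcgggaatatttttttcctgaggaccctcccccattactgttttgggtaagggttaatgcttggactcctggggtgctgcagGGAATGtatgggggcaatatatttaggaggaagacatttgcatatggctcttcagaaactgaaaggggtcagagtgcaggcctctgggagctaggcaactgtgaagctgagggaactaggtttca
Bnc1, chr7:81992300-81992549, minus strand: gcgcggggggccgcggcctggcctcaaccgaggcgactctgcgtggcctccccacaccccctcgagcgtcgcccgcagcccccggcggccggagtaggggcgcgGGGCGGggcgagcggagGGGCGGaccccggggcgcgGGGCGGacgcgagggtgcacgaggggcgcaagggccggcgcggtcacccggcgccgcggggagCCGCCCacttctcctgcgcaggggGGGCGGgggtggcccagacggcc
GGAATG, the letters of the TEAD site, stood once in each of the printed windows of Upk3b, Lrrn4 and Gpm6a, and 12.6% of 32841 windows of the same length held it. Bnc1 had 5 matches to GGGCGG, which 32.7% of windows held, in a window of 83.6% G and C against a median of 52.4%. The window at the other start of Gpm6a, chr8:54954478-54954727, held no GGAATG. It held TATAAA on the reverse strand, as 12.4% of windows did. The WT1 and EGR core was in none of the 5 windows of these genes and in 4.31% of all windows, and the AP-1 letters in none of the 5 and in 6.75% of all. A match describes letters in a window and shows no binding.

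Msln, which encodes the precursor of mesothelin, had normalized counts of 689.5, 417.0, 992.1 and 3035.5 in KO replicates 1 to 4, against 470.6, 241.4, 747.3 and 912.9 in WT replicates 1 to 4. On the deposited scaling KO replicates 3 and 4 lay above every WT library and KO replicate 2 below all but 1 of them, so the groups overlapped. On the log2(normalized count + 1) scale KO exceeded WT by a log2 fold change of 0.87 with an SE of 0.63 (95% interval -0.56 to 2.30, limma adjusted p = 0.294), with means of 1284 ± 1191 in KO and 593.0 ± 297.1 in WT (SD, n = 4 each).

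Upk3b encodes a single-pass uroplakin, a family best known from the plaques of the bladder's urothelium. Its normalized counts were 1413.4, 824.6, 2787.2 and 6142.6 in KO replicates 1 to 4, against 1167.7, 645.3, 1895.6 and 3130.1 in WT replicates 1 to 4. Only KO replicate 4 lay above all WT libraries, and the log2 fold change was 0.54 with an SE of 0.67 (95% interval -0.99 to 2.07, limma adjusted p = 0.545). Upk1b encodes a tetraspanin uroplakin, and had 251.7, 147.8, 452.5 and 1007.8 in KO replicates 1 to 4, against 215.6, 148.1, 338.8 and 702.2 in WT replicates 1 to 4. The lowest KO and lowest WT library were level, and the log2 fold change was 0.29 with an SE of 0.65 (limma adjusted p = 0.743). WT replicate 4 is the library with transcripts of the bladder uroplakins Upk2 and Upk3a, named after their values were seen. Both were at 0 in all KO libraries, while Upk2 had 124.5 and Upk3a 170.4 in WT replicate 4 and at most 1.0 in any other WT library. Upk1a, a further uroplakin also named after its values were seen, was not confined to WT replicate 4. It had 65.1 to 236.9 in WT libraries, with WT replicate 4 the highest, and 3.4 to 8.6 in KO libraries. The part of tissue making these uroplakins in the Upk1b and Upk3b values was not tested, in WT replicate 4 or elsewhere.

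Lrrn4 and Gpm6a encode membrane proteins known from neurons, a leucine-rich repeat protein and the glycoprotein M6a. Lrrn4 had normalized counts of 413.7, 282.0, 706.2 and 2252.1 in KO replicates 1 to 4, against 331.2, 215.4, 605.3 and 923.2 in WT replicates 1 to 4. Gpm6a had 483.8, 268.3, 624.5 and 1582.6 in KO replicates 1 to 4, against 275.2, 209.6, 501.3 and 820.2 in WT replicates 1 to 4. In both genes KO replicate 4 stood above all other libraries and the remaining KO libraries fell within the WT range. The log2 fold changes were 0.55 ± 0.68 (SE, limma adjusted p = 0.537) for Lrrn4 and 0.61 ± 0.58 (SE, limma adjusted p = 0.431) for Gpm6a. A list of 9 Schwann cell and neural genes did not share this profile, with sums of 456.2, 511.0, 365.5 and 390.5 in KO replicates 1 to 4, against 2152.0, 1373.3, 2149.0 and 1440.1 in WT replicates 1 to 4.

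Wt1 and Bnc1 encode zinc finger transcription factors. Wt1 is a factor of the developing gonad, kidney and body cavity lining, and had normalized counts of 181.6, 141.9, 366.5 and 631.8 in KO replicates 1 to 4, against 207.3, 129.8, 237.6 and 320.2 in WT replicates 1 to 4. On the deposited scaling KO replicates 3 and 4 exceeded every WT library and KO replicates 1 and 2 lay within the WT range, and the log2 fold change was 0.38 with an SE of 0.48 (limma adjusted p = 0.544). Its neighbour Wt1os was low, at 8.0, 8.5, 24.7 and 47.3 in KO replicates 1 to 4, against 10.1, 3.8, 14.9 and 24.3 in WT replicates 1 to 4, again highest in replicate 4 of each genotype. Bnc1, basonuclin 1, is known from basal keratinocytes and germ cells. It had normalized counts of 88.5, 35.0, 156.9 and 523.9 in KO replicates 1 to 4, against 89.0, 51.9, 172.7 and 169.5 in WT replicates 1 to 4. Bnc1 was the exception among the 7 in that WT replicate 3 stood slightly above WT replicate 4, and its log2 fold change was 0.23 with an SE of 0.77 (limma adjusted p = 0.831).

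**Figure D1:**
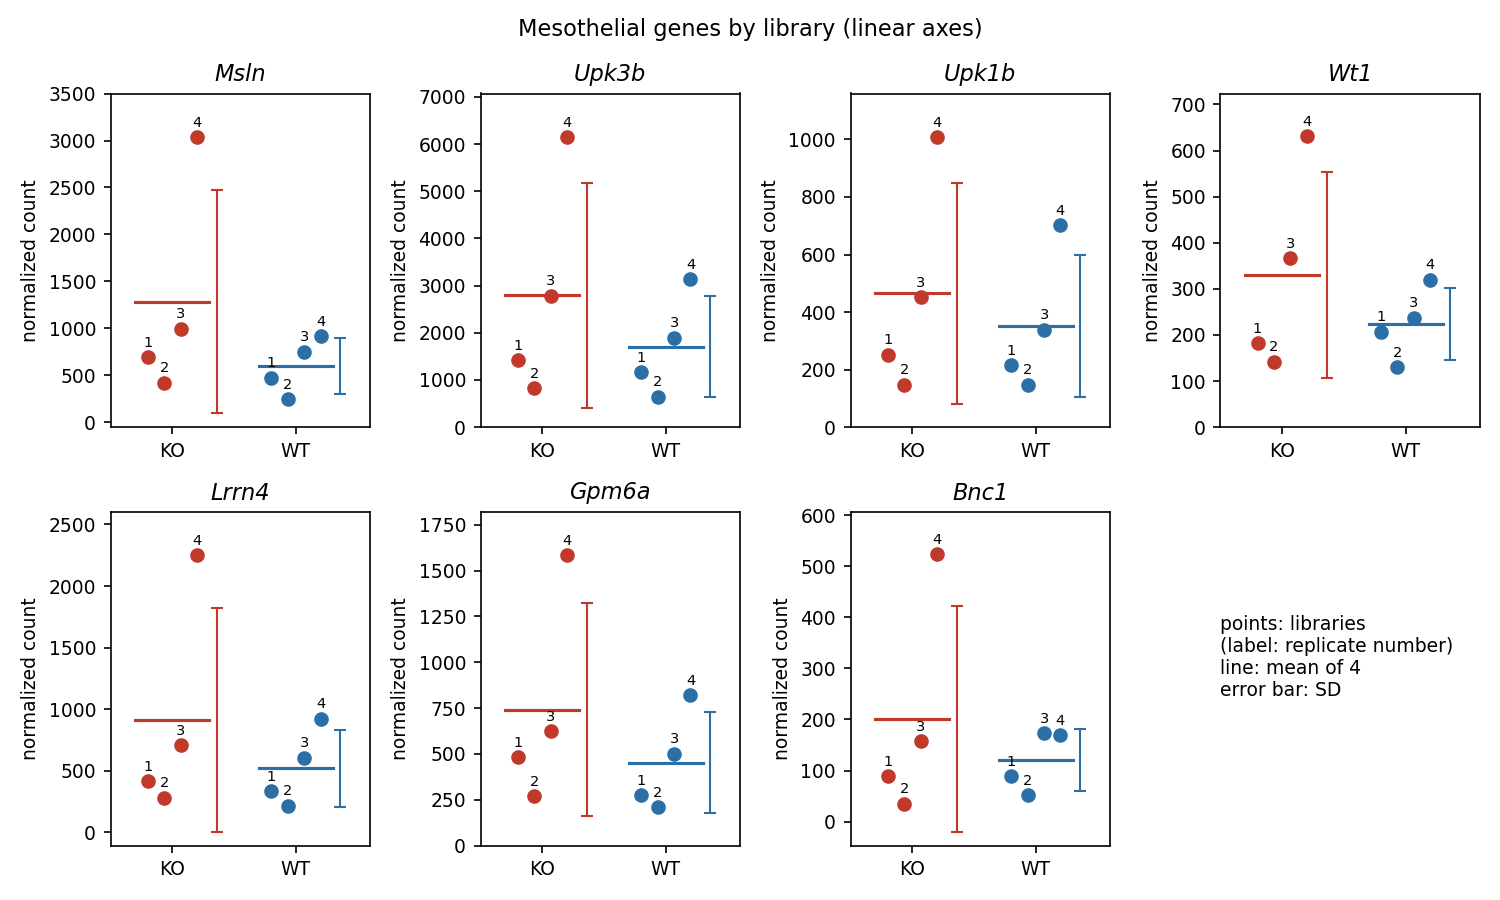
Normalized counts of the 7 mesothelial genes in each library, KO on the left and WT on the right of each panel, with replicate numbers beside the points, the mean of 4 as a line and the SD as an error bar. KO replicate 4 is the highest point of every panel, from 523.9 for Bnc1 to 6142.6 for Upk3b, and the other KO points lie among the WT points or close to them.

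Across the whole table, 7423 of 17798 genes tested passed limma at an adjusted p under 0.05, a share of 41.7%, with 3592 higher and 3831 lower in KO. Of the 7 mesothelial genes 0 passed, also 0 at an unadjusted p under 0.05 (9015 of all genes), and 0 passed with edgeR or DESeq2 on the recovered reads. Their groups overlapped in 7 of 7 genes, whereas the groups did not overlap in 42.1% of all genes tested. The fitted folds ran from 1.17 for Bnc1 to 1.83 for Msln, with a median log2 fold change of 0.54 over the 7 genes and -0.01 over all genes. The intervals are wide: for Msln they run from 0.677-fold to 4.93-fold and for Bnc1 from 0.346-fold to 3.98-fold, so that differences of 2-fold or more in KO lie within them (a fold of 2 is 1 on the log2 scale). For 4 of the 7 genes the direction rested on KO replicate 4. Without KO replicate 4, the log2 fold change was 0.32 for Msln, 0.14 for Gpm6a, 0.03 for Upk3b, -0.01 for Wt1, -0.04 for Lrrn4, -0.20 for Upk1b and -0.45 for Bnc1. Without WT replicate 2 it was -0.04 for Upk1b and -0.12 for Bnc1. Without any single other library all 7 stayed above 0, as they did under quantile scaling and under scaling to equal library totals, and with KO replicate 3 and WT replicate 4 both left out. The scalings moved the median of all genes by 0.10 and -0.17 on the log2 scale and the called genes to 4593 higher and 3257 lower and to 1891 higher and 4692 lower in KO. A fit with the replicate number as a block, which the labels do not say is shared by KO and WT libraries, called 3 of the 7 (Msln, Upk3b and Gpm6a, all higher in KO), where it called 35.2% of all genes, 16.8% higher in KO.

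**Figure D2:**
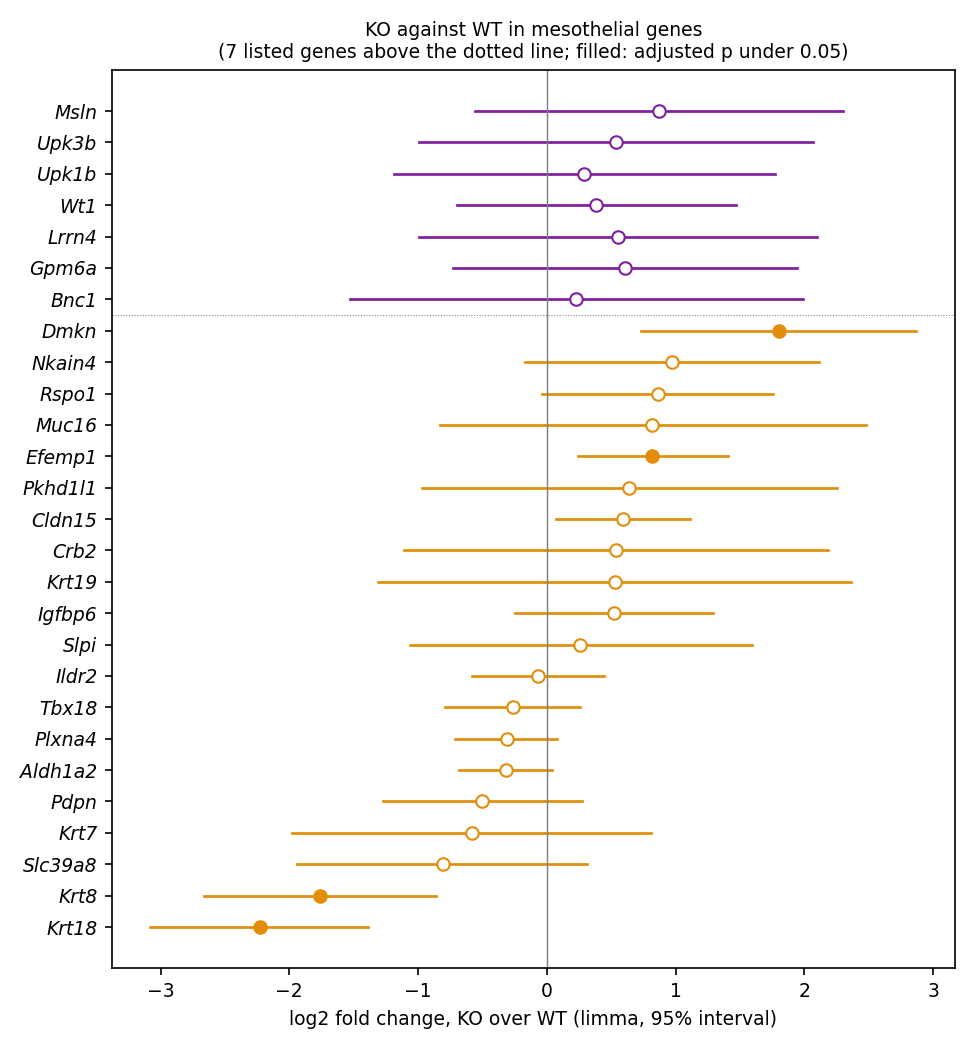
Log2 fold change of KO over WT with its 95% interval from limma, for the 7 mesothelial genes (above the dotted line) and the 20 tested genes of the second mesothelial list, where filled points passed an adjusted p of 0.05. The intervals of all 7 genes contain 0, and Dmkn, Efemp1, Krt8 and Krt18 are the filled points.

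The spread between libraries of one genotype was large. The SD within genotype on the log2 scale, pooled over both genotypes, was 1.28 for Bnc1, 1.13 for Lrrn4, 1.12 for Upk3b, 1.08 for Upk1b, 1.05 for Msln, 0.98 for Gpm6a and 0.79 for Wt1, against a median of 0.24 over all genes tested. These values exceeded those of 91.3% (Wt1) to 96.5% (Bnc1) of genes. From lowest to highest library, Bnc1 spanned 15.0-fold and Lrrn4 7.99-fold in KO, and 3.32-fold and 4.29-fold in WT. KO replicate 4 exceeded the mean of the other KO libraries by 2.72 for Bnc1, 2.37 for Lrrn4, 2.20 for Msln, 2.05 for Upk3b, 1.97 for Upk1b, 1.87 for Gpm6a and 1.57 for Wt1, each a log2 difference. In all genes tested the median of that difference was -0.02, and 0.691% of genes reached that of Wt1. WT replicate 4 exceeded the other WT libraries by less, from 0.78 for Wt1 to 1.66 for Upk1b.

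The 7 genes shared the order of their libraries. KO replicate 4 was the highest and KO replicate 2 the lowest KO library in 7 of 7 genes, as in 12.0% of all genes tested. WT replicate 4 was the highest and WT replicate 2 the lowest WT library in 6 of 7, as in 6.94% of all genes. Both held at once in 6 of 7 genes and in 1.02% of all genes, 182 of 17798. This order was read from the 7 genes themselves, so their counts describe the pattern and do not test it. Centred on each gene's mean over the 8 libraries, the 7 genes averaged -0.28, -1.04, 0.48 and 1.83 in KO replicates 1 to 4, against -0.56, -1.25, 0.14 and 0.68 in WT replicates 1 to 4, on the log2 scale. The root mean square difference between a pair of the 7 genes over the 8 libraries ranged from 0.16, between Upk3b and Lrrn4, to 0.50, between Wt1 and Bnc1, with a median of 0.34 over 21 pairs. Upk3b, Lrrn4 and Gpm6a lay within 0.22 of each other, Msln and Upk1b were 0.39 apart, and Wt1 had the smallest and Bnc1 the largest spread within genotype. The replicate numbers are names in the labels, and nothing there says that KO and WT libraries of one number share a litter or a day.

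**Figure D3:**
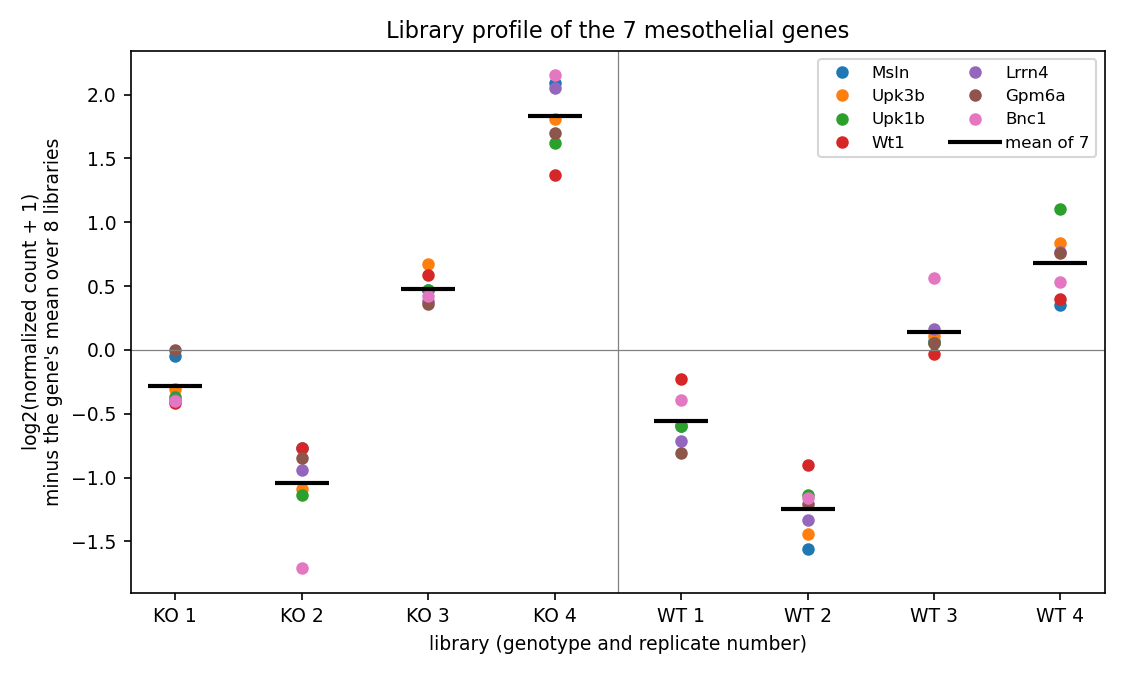
Log2(normalized count + 1) of the 7 genes in each library, centred on each gene's mean over the 8 libraries, KO libraries on the left and WT libraries on the right, with the mean of the 7 genes as a bar. The genes keep close to their mean, which is 1.83 in KO replicate 4 and -1.04 in KO replicate 2, against 0.68 in WT replicate 4 and -1.25 in WT replicate 2.

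**Figure D4:**
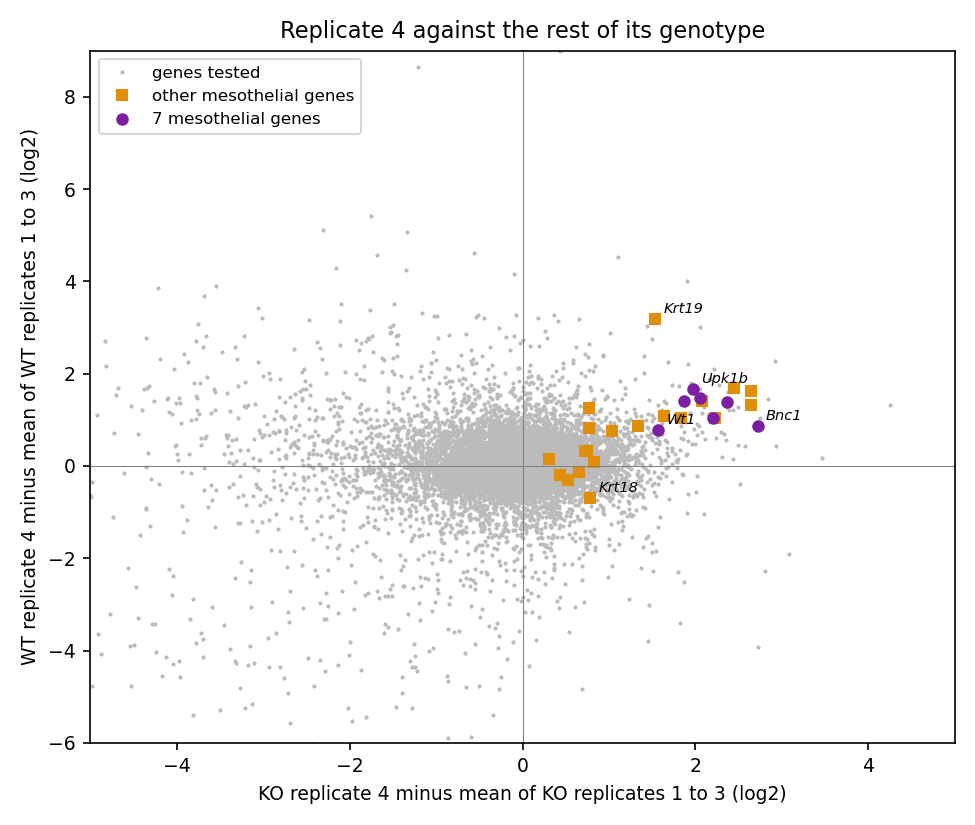
Log2 difference between replicate 4 and the mean of replicates 1 to 3, in KO (horizontal) and in WT (vertical), for all 17798 genes tested (grey, with 69 outside the axes), the 7 mesothelial genes (circles) and the second mesothelial list (squares). The 7 genes lie at 1.57 to 2.72 in KO and 0.78 to 1.66 in WT, to the upper right of most grey points.

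The sum of the 7 genes was 3522.1, 2116.7, 6086.1 and 15176.4 normalized counts in KO replicates 1 to 4, against 2756.5, 1641.6, 4498.5 and 6978.4 in WT replicates 1 to 4. Upk3b held 39.0% to 45.8% of that sum in KO libraries and 39.3% to 44.9% in WT libraries, and Lrrn4 11.6% to 14.8% in KO and 12.0% to 13.5% in WT. The share of Bnc1 was 1.7% in KO replicate 2 and 3.5% in KO replicate 4, the KO libraries with the lowest and highest sum, and 2.4% to 3.8% in WT libraries. Wt1 went the other way, with 6.7% in KO replicate 2 and 4.2% in KO replicate 4, against 7.9% in WT replicate 2 and 4.6% in WT replicate 4. The share of Msln was 16.3% to 20.0% in KO libraries and 13.1% to 17.1% in WT libraries. Upk1b was the member whose share did not overlap between genotypes, at 6.6% to 7.4% in KO and 7.5% to 10.1% in WT, chosen after the values were seen and not tested. The highest Upk1b share, 10.1%, was that of WT replicate 4, the library with Upk2 and Upk3a. Msln reads per Upk3b read numbered 0.488, 0.506, 0.356 and 0.494 in KO replicates 1 to 4, against 0.403, 0.374, 0.394 and 0.292 in WT replicates 1 to 4, higher in KO except for KO replicate 3.

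Per exon length, the order of levels was stable. In TPM, a length-corrected level scaled to the same total in every library and computed from the recovered reads and each gene's merged exons, Upk3b ranked first of the 7 in all 8 libraries, at 65.4 ± 65.4 TPM in KO and 48.5 ± 29.7 TPM in WT (SD, n = 4 each). Msln was second in 7 of 8 libraries, at 35.8 ± 38.2 TPM in KO and 19.5 ± 9.55 TPM in WT, and Upk1b was second in WT replicate 4. Upk1b, Lrrn4 and Gpm6a followed with means over the 8 libraries of 17.6, 17.5 and 16.8 TPM, and changed places between libraries. Differences among these genes were not tested. Wt1 (3.99 TPM) and Bnc1 (3.15 TPM) were the last 2 in all 8 libraries, in changing order. The place of KO replicate 3 depended on the scaling: in TPM it lay below KO replicate 1 in all 7 genes, whereas in normalized counts it lay above it. Msln had 15.4 TPM in KO replicate 3, against 15.6, 7.95, 25.1 and 29.2 TPM in WT replicates 1 to 4, and Wt1 had 2.81 TPM there, against 3.40, 2.12, 3.95 and 5.06 TPM in WT replicates 1 to 4, so that in TPM KO replicate 4 alone exceeded every WT library. KO replicate 4 stayed the highest and KO replicate 2 the lowest KO library of all 7 genes in TPM. No fold change was fitted in TPM, so the directions given above cover the fitted scalings only. Upk1b, for one, had 11.6, 6.83, 10.3 and 45.2 TPM in KO replicates 1 to 4, against 10.5, 7.16, 16.7 and 32.9 TPM in WT replicates 1 to 4.

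A second list held 22 further genes known from mesothelium, of which 20 passed the filter on low values; Calb2 and Sbspon did not. Of the 20, 2 rose, 2 fell and 16 did not pass, with a median log2 fold change of 0.39, against 20.2% of all genes higher and 21.5% lower. Dmkn, dermokine, a secreted protein also made in epidermis, had 187.3, 82.0, 110.7 and 205.0 in KO replicates 1 to 4, against 56.9, 22.1, 23.2 and 74.9 in WT replicates 1 to 4. All KO libraries lay above all WT libraries, and Dmkn rose by a log2 fold change of 1.80 with an SE of 0.47 (limma adjusted p = 0.0158), a call kept with any single library left out. Efemp1, the matrix protein fibulin-3, which fibroblasts also make, overlapped between the groups, averaged 6140 ± 1881 in KO and 3485 ± 1160 in WT (SD, n = 4 each) and rose by 0.82 (limma adjusted p = 0.0321). That call was lost without KO replicate 3 (limma adjusted p = 0.0631), KO replicate 4 (0.0671), WT replicate 1 (0.081), WT replicate 2 (0.0756) or WT replicate 3 (0.0723), and under scaling to equal library totals (0.0867).

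The keratins that fell were those shared by all simple epithelia. Krt8 fell by 1.76 on the log2 scale, with 561.8 ± 303.9 in KO and 1761 ± 516.9 in WT (SD, n = 4 each, limma adjusted p = 0.00816). Its partner Krt18 fell by 2.23, with 298.0 ± 135.3 in KO and 1353 ± 469.4 in WT (limma adjusted p = 0.00229). Neither followed the mesothelial profile: the highest KO library of both was KO replicate 1. A list of 10 general epithelial genes was lower in KO too, with 8 of 10 falling, where 21.5% of all genes fell, and sums of 1164.1, 458.0, 215.0 and 361.4 in KO replicates 1 to 4, against 3326.2, 6982.7, 5999.6 and 4099.2 in WT replicates 1 to 4. Its most abundant members were Cldn3, a tight junction claudin, at 53.0 to 112.6 in KO and 791.6 to 1753.1 in WT, and Cdh1, E-cadherin, at 4.9 to 218.3 in KO and 769.7 to 1553.1 in WT. A list of 14 epididymal genes summed to 63.2, 299.1, 1338.2 and 12.1 in KO replicates 1 to 4, against 61284.3, 129115.2, 114901.1 and 120137.4 in WT replicates 1 to 4, with Crisp1, a sperm-binding secreted protein, the most abundant at 0 to 37.6 in KO and 26574.7 to 71824.5 in WT. The part of tract tissue in the mesothelial values was not tested.

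The remaining keratins followed the mesothelial profile in part. Krt19 had 599.8, 281.1, 714.8 and 1427.4 in KO replicates 1 to 4, against 235.8, 192.3, 373.2 and 2348.3 in WT replicates 1 to 4, with a log2 fold change of 0.53 (limma adjusted p = 0.625). Krt7 had 67.5 to 555.4 in KO libraries, against 586.1 in WT replicate 4 and at most 272.9 in the other WT libraries, with a log2 fold change of -0.58 (limma adjusted p = 0.47). In both, WT replicate 4 was the highest library of all 8. That library also stood apart in 5 smooth muscle genes, which summed to 52867.5 there, to 8460.5 to 17180.6 in KO libraries and to 5939.6 to 9349.4 in the other WT libraries.

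Several secreted and membrane genes of the second list had the same highest and lowest libraries as the 7 genes, and did not pass between genotypes in the limma fit without a block. Muc16, the mucin that binds mesothelin, had 225.2, 165.8, 269.8 and 1349.8 in KO replicates 1 to 4, against 167.0, 77.9, 233.9 and 450.4 in WT replicates 1 to 4 (log2 fold change 0.82, limma adjusted p = 0.387). Nkain4, which encodes a protein that interacts with the sodium pump, had 280.4, 233.3, 465.4 and 1112.1 in KO replicates 1 to 4, against 170.6, 145.2, 246.9 and 373.6 in WT replicates 1 to 4 (0.97, limma adjusted p = 0.151). Rspo1, a secreted enhancer of Wnt signalling, had 690.6, 366.6, 588.0 and 1331.6 in KO replicates 1 to 4, against 302.7, 255.8, 409.4 and 577.7 in WT replicates 1 to 4 (0.86, limma adjusted p = 0.113). Of the 20 genes, 18 were highest in KO replicate 4 among KO libraries, Krt8 and Krt18 being the others, where 29.2% of all genes were. Among WT libraries, 14 of the 20 were highest in WT replicate 4, where 25.6% of all genes were. The highest and lowest library of each genotype were those of the 7 genes for 9 of the 20, Krt7, Krt19, Muc16, Nkain4, Rspo1, Pkhd1l1, Dmkn, Slpi and Crb2, against 1.02% of all genes. In Rspo1 and Dmkn the libraries between them ran otherwise, with KO replicate 1 above KO replicate 3. Cldn15, a tight junction claudin, passed without KO replicate 2 (limma adjusted p = 0.0158), under quantile scaling (limma adjusted p = 0.0476) and with DESeq2 (adjusted p = 0.0227), each time higher in KO. Rspo1 passed without KO replicate 2 (limma adjusted p = 0.0391), with the replicate block (limma adjusted p = 0.0133) and with DESeq2 (adjusted p = 0.0414), and Nkain4 with the block (limma adjusted p = 0.0121) and DESeq2 (adjusted p = 0.0476), all higher in KO. The zinc transporter gene Slc39a8 and the semaphorin co-receptor gene Plxna4 passed without KO replicate 4, lower in KO (limma adjusted p = 0.0491 and 0.0185). Aldh1a2, which makes retinoic acid, and podoplanin, Pdpn, shared the profile only in part. Both were highest in KO replicate 4 among KO libraries and lowest in WT replicate 2 among WT libraries. However, KO replicate 2 was not their lowest KO library, and WT replicate 1 was their highest WT library, at 857.7 and 2110.8.

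Likeness to the mean profile of the 7 genes was measured as the root mean square difference over the 8 libraries, on the centred log2 scale, for 12946 genes with a mean of at least 50, predicted genes and pseudogenes left out. The 10 nearest genes outside the 7 were Wnt2b (0.16), Tmem151a (0.19), Spock2 (0.22), Slpi (0.23), AI661453 (0.23), Crb2 (0.26), Cyp2s1 (0.28), Rpp25 (0.30), Pkhd1l1 (0.33) and Fras1 (0.34), against a median of 0.98 over all genes ranked. Slpi, a secreted protease inhibitor, Crb2, a cell polarity protein, and Pkhd1l1, a relative of the kidney protein fibrocystin, were on the second list, and the other 7 were not. Wnt2b, a Wnt ligand, had 219.5, 115.4, 373.0 and 1197.0 in KO replicates 1 to 4, against 224.7, 124.1, 286.8 and 486.9 in WT replicates 1 to 4. Spock2, the proteoglycan testican-2, was the most abundant of those not on the second list, at 564.9 to 5012.3 in KO libraries and 646.2 to 2204.1 in WT libraries. Within 0.5 lay 27 genes, 0.209% of those ranked, 7 of them among the 20 genes of the second list. With the 7 genes themselves left out of the ranking, each also had a nearest gene of its own: Muc16 was nearest to Msln (0.27), Tmem151a to Upk3b (0.19) and to Bnc1 (0.25), Wnt2b to Upk1b (0.23) and Lrrn4 (0.19), and AI661453 to Wt1 (0.21) and Gpm6a (0.22).

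**Figure D5:**
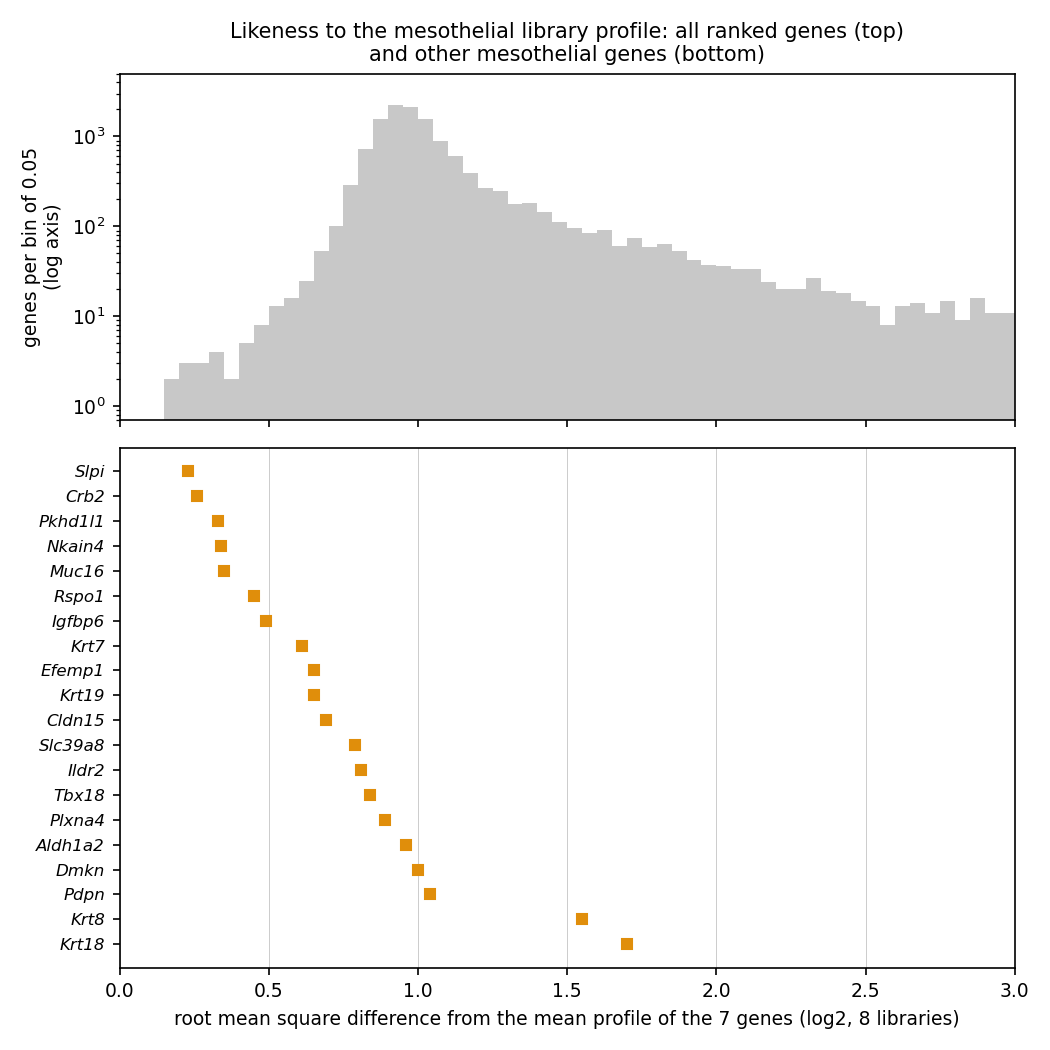
Root mean square difference of each gene's centred log2 profile from the mean profile of the 7 mesothelial genes over 8 libraries, for 12946 genes as a histogram with a log axis (top, axis ending at 3) and for the 20 genes of the second list (bottom). Slpi (0.23) and Crb2 (0.26) lie at the low end. Dmkn (1.0), Pdpn (1.04), Krt8 (1.55) and Krt18 (1.70) lie above the median of all genes, 0.98, and 183 genes lie beyond the axis. The measure also counts differences between genotypes, and a gene level in all 8 libraries would stand at 0.94. Dmkn, higher in KO, shared the highest and lowest library of each genotype with the 7 genes.

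Several of the 7 genes have relatives of the same family in the table. Gpm6b, the paralog of Gpm6a, fell by 1.29 on the log2 scale, at 368.7 to 510.2 in KO libraries and 838.6 to 1472.3 in WT libraries (limma adjusted p = 0.00151). Lrrn2, at 137.6 to 295.9 in KO libraries and 252.9 to 405.5 in WT libraries, did not pass (limma adjusted p = 0.103). Outside the rule for named genes, and so chosen after their values were seen, Bnc2 rose by 0.93 (limma adjusted p = 0.00498) and Upk1a fell by 4.37 (limma adjusted p = 0.000436), at 3.4 to 8.6 in KO libraries and 65.1 to 236.9 in WT libraries. Of 8 tested relatives, Wt1os included, 1 rose, 2 fell and 5 did not pass, where 20.2% of all genes were higher and 21.5% lower in KO. A list of 14 fibroblast and progenitor genes summed to 126286.4, 217829.5, 112896.3 and 120547.4 in KO replicates 1 to 4, against 320487.7, 190521.8, 251848.4 and 241137.2 in WT replicates 1 to 4, with KO replicate 2 and not KO replicate 4 the highest in KO. For 11 testis genes the sums were 555.0 to 734.9 in KO libraries and 855.8 to 2313.3 in WT libraries, for 8 macrophage genes 19407.2 to 33848.5 in KO and 111109.8 to 278783.6 in WT, and for 5 endothelial genes 25274.9 to 28583.7 in KO and 11063.8 to 22656.1 in WT. The calls in the testis list did not go the way of its sum. Of 6 testis genes tested, 2 were higher and 0 lower in KO, and 4 did not pass, where 20.2% of all genes were higher and 21.5% lower.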

How the data were processed

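RNA of epididymal fat was measured in 4 KO and 4 WT libraries. The signal deposited by the authors is a normalized count per gene. Per the submitters' processing notes, which assign no roles, the tools were STAR 2.7.7 and DESeq2 and the build GRCm38.p6. The read counter, strand setting, annotation and filters were not given in the sources used here. All values in a library (100.0%, tolerance 0.01 of a read) were whole multiples of 1 step, which gave whole reads. Of 24821 identifiers, 24802 matched GENCODE M21 without their version, and 19 did not.

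Genotype was tested with limma 3.58.1 (R 4.3.3). Values entered as log2(normalized count + 1), with genotype as the only term, a variance trend and robust moderation, over 17798 genes at 10 or more in at least 4 of 8 libraries, with Benjamini-Hochberg adjustment over all of them. Normalized values are not counts, so edgeR 4.0.16 and DESeq2 1.42.0 ran on the recovered reads as alternatives and called 7435 and 8336 genes. TPM and library profiles were computed from the recovered reads and the log2 values. The fit was tested on simulated data. Other alternatives changed the pseudocount, filter, scaling, moderation, replicate block and libraries. The genes and lists were chosen with earlier results of these data known. Named were the 7 genes, the second mesothelial list, the 10 nearest profiles with the nearest to each gene, and the sum with the 2 most abundant members of other lists, which are printed where a value turns on them. Testis, endothelial, macrophage and fibroblast lists are given as sums, the testis list with its calls.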

Additional observations from a re-analysis of the deposited data

Results flagged for a closer look

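In 8 of 58 groups of 4 libraries, over the 29 mesothelial genes of both lists, 1 library lay far from the other 3, by a test of its gap against the group's range that chance meets in about 1 of 20 groups; genes of one profile are not independent in this. None of the 14 groups of the 7 listed genes was among them. KO replicate 4 was the high library for Muc16 (1349.8), Pkhd1l1 (2487.4), Slpi (4973.5), Crb2 (361.4) and Plxna4 (1188.5). WT replicate 4 was the high library for Krt19 (2348.3), Calb2 (21.5) and Sbspon (18.7), and it is also the library with Upk2, Upk3a and the highest smooth muscle sum.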

How the results depend on the processing

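None of the 7 genes passed under another pseudocount, filter, scaling, moderation or count model, or with any single library left out (range 0 to 0). With the replicate block 3 passed, all higher in KO (Msln, Upk3b and Gpm6a, limma adjusted p = 0.0357, 0.028 and 0.0239), where 35.2% of all genes did. A fit with edgeR and the block, added after the data were seen, also gave 3, with 6079 of all 17798 genes. The labels do not say that a replicate number is shared between genotypes, so the block rests on a number alone. Across genes the deviations of same-numbered libraries correlated at -0.143 to 0.172. Of 8 libraries 2 were closest to their own number, and these were KO and WT replicate 4, which make up 1 pair. Without KO replicate 4 and WT replicate 4 together, likewise added, the block called 1 of the 7, 7 of the second list and 4406 genes in all.

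Genes called overall ran from 5641 to 7079 with 1 library left out, and those of the second list from 3 to 6. DESeq2 called 7 of the 20 tested genes of that list, where it called 8336 of all 17798. With the block, edgeR called 8 of the 20, where it called 6079 of all 17798. Signs changed without KO replicate 4 for Upk1b (-0.20), Wt1 (-0.01), Lrrn4 (-0.04), Bnc1 (-0.45), Slpi (-0.29) and Crb2 (-0.12), and without WT replicate 2 for Upk1b (-0.04), Bnc1 (-0.12) and Slpi (-0.02). Over single libraries left out, the log2 fold change ran from -0.20 to 0.72 for Upk1b, -0.01 to 0.71 for Wt1, -0.04 to 0.96 for Lrrn4, -0.45 to 0.84 for Bnc1, -0.29 to 0.62 for Slpi, -0.12 to 1.02 for Crb2 and -0.28 to 0.07 for Ildr2, which was 0.07 without KO replicate 3 and 0.03 without WT replicate 3. Without KO and WT replicate 4, with or without the block, Bnc1 was at -0.23 and Slpi at -0.03. Ildr2 was at 0.09 without WT replicate 4 and KO replicate 3, and Krt19 at -0.05 with edgeR and with DESeq2. The cause of these changes was not tested. Counting error is small beside the spread between libraries, which limits what 4 libraries a group can show.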
